A study of Mus musculus with 6 samples.

Results

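Activation-induced deaminase (AID) works together with proteins of transcription elongation and RNA decay, and the expression of 10 such genes was examined among the 39179 genes with a value in GC and naive B cells. The genes were taken by name, for reported links of their products to AID: Supt5, Supt6, Paf1, Cdk9 and Ccnt1 of transcription elongation, Exosc3, Exosc10 and Dis3 of the RNA exosome, and Ptbp2 and Rnf126, whose products bind AID or modify it. Each symbol matched 1 Ensembl identifier, with Supt5 and Supt6 listed under their older symbols Supt5h and Supt6h. RNA-Seq was performed on total RNA of B cells sorted from Peyer's patches of the ileum of female WT C57BL/6 mice at 12 weeks of age. GC B cells were sorted as B cells that carried Fas and GL7, and naive, or resting, B cells carried neither. There were 3 biological replicates per population, made by pooling cells of several littermates, so that variation between single mice was not measured. All mice were WT and untreated as far as the labels state, and no AID-deficient cells were part of the comparison.

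AID deaminates cytosine in single-stranded DNA of transcribed genes, and it drives somatic hypermutation and class switching in GC B cells. RNA polymerase II pauses shortly after it starts, held by DSIF (Spt5 with Spt4) and NELF, and the kinase P-TEFb (Cdk9 with cyclin T1 or T2) releases it. Spt5, Spt6 and the PAF complex travel with the polymerase and have been linked to AID binding at its targets. The RNA exosome is a ring of core subunits with the nucleases Exosc10 and Dis3; it degrades nascent RNA and has been linked to the access of AID to both DNA strands.

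The files gave expression as FPKM, which the authors computed with RSEM, and each value was rescaled to TPM (transcript abundance relative to the total of the pool). Depth was not given as counts; the steps between low values put it at about 9950000 to 10900000 reads in the GC pools and 9750000 to 16200000 reads in the naive pools. Of 4 B cell markers, 1 was higher in GC B cells (Ms4a1, 931 against 717 TPM on average) and 3 were lower, among them Cd79a (1077 against 2349 TPM), and all 5 GC markers examined were higher in GC B cells. The summed level of 7 intestinal epithelial markers was 46.8 to 103 TPM in GC pools and 120 to 154 TPM in naive pools. The T cell markers other than Lck lay under 2 TPM in every pool, which includes the defining genes Cd3e, Cd3d and Cd3g. Summed levels of 4 myeloid markers were 0.836 to 2.17 TPM in GC and 3.33 to 6.41 TPM in naive pools, and Cd14 was listed at 0 in 5 of the 6 pools. All 9 proliferation genes were higher in GC B cells, with summed levels of 2267 to 2339 TPM against 182 to 188 TPM. The part that epithelial or myeloid RNA, or proliferation, has in the values below was not tested. In sorted populations, fewer cells of a type and less RNA per cell cannot be told apart.

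The promoters of 3 exosome genes are shown because 2 of these genes were higher in GC B cells, and the third was not (below). They are the 250 bases before the RefSeq transcription start (GRCm38.p6; all 10 genes matched), 5′ to 3′ on the strand of the gene, with matches to searched motifs in capitals. Exosc3 lies at chr4:45320617-45320866 on the minus strand, Dis3 at chr14:99099771-99100020 on the minus strand, and Exosc10, at the first of its 2 listed starts, at chr4:148558169-148558418 on the plus strand.
Exosc3: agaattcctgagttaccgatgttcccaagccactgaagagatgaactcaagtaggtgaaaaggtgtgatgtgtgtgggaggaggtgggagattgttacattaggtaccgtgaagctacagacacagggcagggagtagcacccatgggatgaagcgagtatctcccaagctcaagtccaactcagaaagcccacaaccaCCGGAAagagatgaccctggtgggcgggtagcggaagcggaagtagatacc
Dis3: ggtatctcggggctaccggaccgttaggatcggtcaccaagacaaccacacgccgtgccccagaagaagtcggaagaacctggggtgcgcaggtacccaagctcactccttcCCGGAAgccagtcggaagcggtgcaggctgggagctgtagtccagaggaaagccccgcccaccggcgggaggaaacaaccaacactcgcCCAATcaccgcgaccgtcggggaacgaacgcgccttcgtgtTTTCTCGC
Exosc10: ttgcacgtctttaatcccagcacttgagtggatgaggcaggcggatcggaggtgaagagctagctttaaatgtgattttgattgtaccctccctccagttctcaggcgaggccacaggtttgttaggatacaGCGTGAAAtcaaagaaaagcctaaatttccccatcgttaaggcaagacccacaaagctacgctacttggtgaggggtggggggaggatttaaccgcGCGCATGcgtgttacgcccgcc

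The motifs searched, on both strands, were CCGGAA (bound by ETS factors), AAGATGG (YY1), CACGTG (E-box), CCAAT (NF-Y), TTTNNCGC (E2F) and CATGCGC (NRF1). None of these words contains another. CCGGAA was found in 6 of the 10 genes (Cdk9, Ccnt1, Exosc3, Exosc10, Dis3 and Rnf126), and in 12.0% of all 32851 promoters and 23.0% of the 10204 promoters of tested genes. In Exosc10 the CCGGAA match lay before its second start, not in the window printed. Members were counted by gene, with Exosc10 counted if the window of either start held a match. The shares are of promoters, so that the units differ. CCAAT was found in Paf1, Cdk9 and Dis3 (33.8% of all promoters and 36.2% of those of tested genes), and TTTNNCGC in Exosc10 and Dis3 (4.28% and 7.16%). AAGATGG was found in Supt5 and Supt6 (4.49% and 4.44%), and CATGCGC in Exosc10 (3.24% and 5.96%). CACGTG was in none of the members' windows and in 6.02% of all promoters and 8.59% of those of tested genes. Among genes with the CCGGAA match, Exosc3, Dis3, Rnf126 and Cdk9 were called higher in GC B cells, and Ccnt1 and Exosc10 were not called. Among genes without it, Paf1 and Ptbp2 were called lower, and Supt5 and Supt6 were not called. A relation between the match and the calls was not tested. A match is a description of the letters and not evidence of binding.

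All 10 genes were expressed in both populations, from 10.4 TPM in a GC pool for Ptbp2 to 193 TPM in a GC pool for Cdk9. In GC B cells the order was led by Cdk9 (193 ± 0.629 TPM; SD, n = 3 pools here and below), and Ptbp2 was lowest (10.5 ± 0.239 TPM). In naive B cells Cdk9 led again (169 ± 12.0 TPM), and Dis3 was lowest (13.4 ± 1.63 TPM). Neighbours in the order that overlapped in their pool values were Supt5 and Exosc3, Exosc10 and Rnf126, and Ccnt1 and Supt6 in GC B cells. In naive B cells the overlapping neighbours were Supt5 and Paf1, Supt6 and Ccnt1, and Ptbp2 and Dis3. Exosc3 was the third gene of the order in GC B cells and the fifth in naive B cells. Cdk9 stood above 94.1% of all tested genes in GC B cells, and Ptbp2 above 36.4%.

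**Figure D1:**
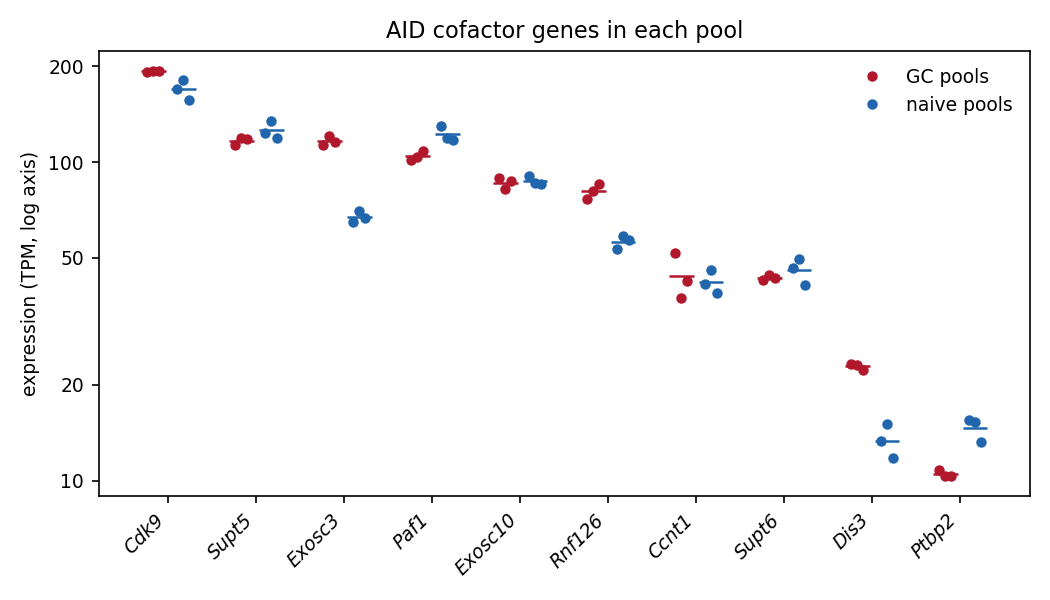
Expression of the 10 AID cofactor genes in each pool, in TPM on a log axis, ordered by the mean of the GC pools; points are pools (3 GC, 3 naive) and short lines are means. The GC points of Exosc3, Dis3, Rnf126 and Cdk9 lie above all naive points. Those of Paf1 and Ptbp2 lie below them, as do those of Supt5 by a narrow gap.

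GC and naive B cells were then compared for each gene with limma on log2(TPM + 1), with Benjamini-Hochberg adjustment over the 12785 genes that reached 1 TPM in at least 3 pools. All 10 members passed this filter. Exosc3, Dis3, Rnf126 and Cdk9 were higher in GC B cells, Paf1 and Ptbp2 were lower, and Supt5, Supt6, Ccnt1 and Exosc10 did not pass the test at an adjusted p of 0.05. Of all tested genes, 35.5% were higher in GC B cells and 30.1% lower, and 65.6% were called in either direction, so that 6 called members of 10 is near the background. The pools of the populations did not overlap for 7 of the 10 members and for 70.7% of all tested genes. The median size of the log2 difference was 0.21 among the members and 0.54 among all tested genes. The split between higher and lower members depended on the scaling: quantile normalization gave 3 higher and 5 lower. The split over all tested genes turned as well, from 4540 higher and 3852 lower to 4088 and 4455 under quantile normalization. A correction for GC content and length covered only 11031 of these genes and gave 3726 higher and 4294 lower. It shifted their median log2 difference by -0.12.

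**Figure D2:**
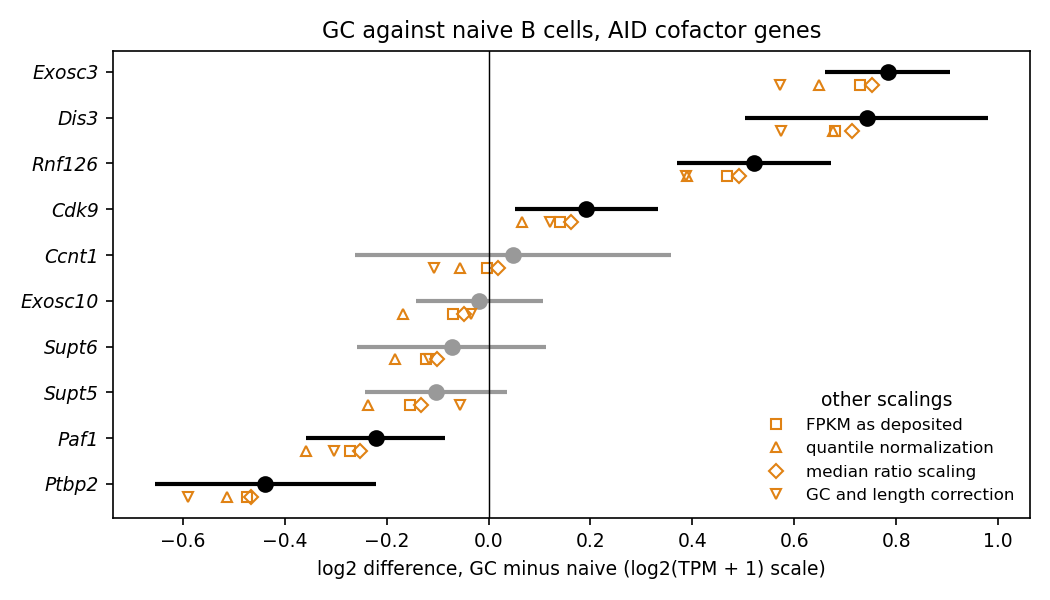
Log2 difference between GC and naive B cells for each member on the log2(TPM + 1) scale, as estimates (circles) with 95% confidence intervals (lines), black where the test was passed and grey where not; open symbols give the estimate under 4 other scalings. Exosc3, Dis3 and Rnf126 stay above 0 and Paf1 and Ptbp2 below 0 under all 4, while Ccnt1, which did not pass, falls on both sides. Relative to the shift of the median of all genes, which is not drawn, Ccnt1 stays above 0.

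Supt5 (ENSMUSG00000003435; GRCm38 chromosome 7, 28314891 to 28338804) encodes Spt5, the DSIF subunit that was found to associate with AID at paused polymerase. The GC pools gave 112.9, 118.9 and 118.5 TPM, in the order of their replicate numbers as in all lists of pools here, and the naive pools 123.4, 134.3 and 119.2 TPM. The naive pools were all above the GC pools, but the gap between the nearest pools was smaller than the spread within either population. The log2 difference was -0.10 (SE 0.06; 95% CI -0.24 to 0.04; limma adjusted p = 0.159). With FPKM as deposited, median ratio scaling and quantile normalization, it passed the test as lower, at -0.15, -0.13 and -0.24. Supt5 was thus not detectably different by the main test, and the interval allows a log2 decrease of up to 0.24.

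The other genes of DSIF and NELF were mostly higher in GC B cells. Of the 6 genes of this list, 4 were higher, none was lower, and Supt5 was among the 2 that did not pass (median log2 difference 0.48, against 0.03 over all tested genes). The other was Nelfb, a NELF subunit named after its values were seen, at 86.5 ± 3.56 TPM in GC pools and 93.6 ± 1.43 TPM in naive pools. Both passed as lower under FPKM as deposited, quantile normalization and median ratio scaling, and Nelfb alone under the GC and length correction. That correction shifted the median of the genes it covered by -0.12, and Nelfb was not set relative to that shift. Supt4a, which encodes the partner of Spt5 in DSIF, was at 243, 235 and 248 TPM in GC pools and at 151, 130.4 and 133 TPM in naive pools. This is a log2 difference of 0.81 (SE 0.06; limma adjusted p = 6.11e-05), in contrast to that of Supt5. The Supt5 to Supt4a ratio of TPM was 0.483 ± 0.0204 in GC B cells and 0.915 ± 0.107 in naive B cells, a comparison chosen after the values were seen and not tested. Nelfe, a NELF subunit, was 1.91 log2 units higher (SE 0.09), and Nelfa 0.51 (SE 0.06).

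Supt6 (ENSMUSG00000002052; chromosome 11, 78206749 to 78245972) encodes Spt6, a histone chaperone that moves with elongating polymerase. It was at 42.6, 44.2 and 43.3 TPM in GC pools and at 46.7, 49.5 and 41.2 TPM in naive pools. The populations overlapped, and the log2 difference was -0.07 (SE 0.08; 95% CI -0.26 to 0.11; limma adjusted p = 0.442). Under quantile normalization it passed the test as lower, at -0.18. The gene overlaps Sdf2 over 227 bases, so that reads there could be divided between them. Both FACT subunits in the same list, which displace histones ahead of the polymerase, were higher in GC B cells: Supt16 by 1.17 log2 units (SE 0.06) and Ssrp1 by 0.90 (SE 0.07). Of the 4 genes of the list, 2 were higher and none was lower.

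Paf1 (ENSMUSG00000003437; chromosome 7, 28392996 to 28399383) encodes a subunit of the PAF elongation complex, and its gene lies 54192 bases from Supt5. It was at 101.4, 103.9 and 108.6 TPM in GC pools and at 130.0, 119.2 and 117.6 TPM in naive pools. Every GC pool was below every naive pool. GC B cells were lower by a log2 difference of -0.22 (SE 0.06; limma adjusted p = 0.0127), and it was between -0.36 and -0.18 in all 17 alternatives, each of which passed the test. The 6 genes of the PAF complex did not move together: 2 were higher, 2 were lower and 2 did not pass (median log2 difference 0.08). Ctr9, the scaffold subunit, was lower too, at -0.45 (SE 0.07), whereas Wdr61 and Leo1 were higher, at 0.46 (SE 0.09) and 0.34 (SE 0.08). Wdr61 was no longer called after a correction for GC content and length, in which its log2 difference was 0.18. Leo1 was no longer called when that correction was combined with the replicate block (0.21), so that none of the 6 genes was called higher there. The correction shifted the median of the genes it covered by -0.12, and the values of Wdr61 and Leo1 were not set relative to that shift.

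Cdk9 (ENSMUSG00000009555; chromosome 2, 32705782 to 32712784) encodes the kinase of P-TEFb, which phosphorylates Spt5, NELF and the polymerase. It was at 192.0, 193.1 and 193.1 TPM in GC pools and at 169.4, 180.7 and 156.7 TPM in naive pools. The GC pools were nearly equal and above all naive pools, which spread more. In limma this gave a log2 difference of 0.19 (SE 0.06; limma adjusted p = 0.0257), which is 14.1% on the TPM scale. This call was fragile: it passed in 9 of 17 alternatives, and not under quantile normalization, where the difference was 0.07 (adjusted p = 0.261). It was also lost when any 1 GC pool or naive replicate 1 was left out, with differences of 0.19 in each case and adjusted p between 0.0632 and 0.0682.

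Ccnt1 (ENSMUSG00000011960; chromosome 15, 98538690 to 98567736) encodes cyclin T1, the regulatory subunit that activates Cdk9. It was at 51.7, 37.3 and 42.2 TPM in GC pools and at 41.6, 45.7 and 38.7 TPM in naive pools. GC replicate 1 was the highest and GC replicate 2 the lowest of the 6 pools, so that the naive pools lay within the GC range. The log2 difference was 0.05 (SE 0.13; 95% CI -0.26 to 0.36; limma adjusted p = 0.762), and without GC replicate 1 it was -0.08. The spread among GC pools, a coefficient of variation of 16.7%, was above the median of 5.38% for genes between 30 and 100 TPM. Ccnt2, the paralog that can replace cyclin T1, was at 52.0 ± 1.87 TPM in the GC pools and 46.3 ± 5.10 TPM in the naive pools (log2 difference 0.17, SE 0.09; adjusted p = 0.141).

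Of the 8 genes of the P-TEFb and 7SK list, 2 were higher, 1 was lower and 5 did not pass the test (median log2 difference 0.17). Cdk9 was 1 of the 2 higher genes. Only 1 was higher under quantile normalization, limma without trend, or with any 1 GC pool or naive replicate 1 left out. Without naive replicate 2, 3 were higher. Larp7, which stabilizes the 7SK RNA that holds P-TEFb inactive, was 1.21 log2 units higher in GC B cells (SE 0.06; limma adjusted p = 5.04e-06). Mepce, which caps the same RNA, was lower, at -0.42 (SE 0.07; adjusted p = 0.002). The 9 genes of the super elongation complex, which brings P-TEFb to paused polymerase, all passed the test, with 6 higher and 3 lower. Over all tested genes, 65.6% passed, 35.5% as higher and 30.1% as lower. Eaf2, a partner of the ELL elongation factors, rose from 3.74 ± 0.892 TPM in naive to 181 ± 3.06 TPM in GC B cells. Ell2 and Ell3 were higher by 1.55 (SE 0.07) and 0.83 (SE 0.09) log2 units. Aff1, a scaffold of the complex, fell from 34.0 ± 2.85 TPM in naive to 1.45 ± 0.363 TPM in GC B cells. Mllt3 and Ell were lower, at -1.23 (SE 0.16) and -0.49 (SE 0.09).

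Exosc3 (ENSMUSG00000028322; chromosome 4, 45316613 to 45320616), whose promoter is printed above, encodes a cap subunit of the exosome core. It was at 113.0, 120.4 and 115.6 TPM in GC pools and at 64.9, 70.0 and 66.7 TPM in naive pools. The populations were well apart, with a spread of 3.21% among GC pools and 3.87% among naive pools. Exosc3 was higher in GC B cells by 0.78 on the log2 scale (SE 0.05; 95% CI 0.66 to 0.91; limma adjusted p = 2.5e-05), or 1.73-fold on the TPM scale. The size of this difference was not reached by 64.5% of all tested genes. It passed in all 17 alternatives and was lowest, at 0.57, after the correction for GC content and length.

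Dis3 (ENSMUSG00000033166; chromosome 14, 99076634 to 99099780) encodes the nuclease attached to the base of the exosome ring, with both exonuclease and endonuclease activity. It was at 23.3, 23.2 and 22.3 TPM in GC pools and at 13.3, 15.0 and 11.8 TPM in naive pools. All GC pools were above all naive pools, at a level well below that of Exosc3. For Dis3 the log2 difference was 0.74 (SE 0.10; 95% CI 0.50 to 0.98; limma adjusted p = 0.000697), and it passed in all 17 alternatives, between 0.57 and 0.82. The gene overlaps Pibf1 over 357 bases at its start; Pibf1 averaged 5.22 TPM in the GC pools and 5.68 TPM in the naive pools. Dis3l, the cytoplasmic paralog, was at 13.2 ± 0.0951 TPM in the GC pools and 12.4 ± 0.821 TPM in the naive pools, a log2 difference of 0.08 (SE 0.08; adjusted p = 0.396).

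Exosc10 (ENSMUSG00000017264; chromosome 4, 148558419 to 148582401) encodes the other nuclease, a 3′ to 5′ exonuclease found mainly in the nucleus. It was at 89.1, 82.3 and 87.0 TPM in GC pools and at 90.4, 86.0 and 85.3 TPM in naive pools. The pools of the populations were interleaved. The log2 difference was -0.02 (SE 0.05; 95% CI -0.14 to 0.11; limma adjusted p = 0.777), so that an increase of the size seen for Exosc3 or Dis3 lies outside its interval. Under quantile normalization Exosc10 passed the test as lower, at -0.17.

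Of the 11 exosome genes with a value, 7 were higher in GC B cells, none was lower and 4 did not pass the test (median log2 difference 0.49), against 35.5% higher and 30.1% lower over all tested genes. Their summed level was 747 to 752 TPM in GC pools and 493 to 523 TPM in naive pools. Exosc8 and Exosc9, subunits of the core ring, were higher by 1.10 (SE 0.09) and 0.76 (SE 0.12) log2 units. The 4 genes that did not pass were Exosc10, Dis3l, and the ring subunits Exosc4 and Exosc5, the last pair named after their values were seen. The count of 0 lower depended on 1 pool and on the scaling. Exosc4 was at 15.8, 25.5 and 17.1 TPM in GC pools and 20.5, 20.5 and 21.0 TPM in naive pools. Without GC replicate 2, Exosc4 passed as lower, at -0.31. With all pools kept, Exosc10 passed as lower under quantile normalization, at -0.17. Exosc5 was at 63.9, 64.8 and 67.4 TPM in GC pools and at 60.5, 66.5 and 66.1 TPM in naive pools. Among 12 genes of exosome adaptors, 5 were higher, 1 was lower and 6 did not pass. These counts depended on the scaling. Under quantile normalization and under the GC and length correction, 4 were higher and 3 lower. With FPKM as deposited and with median ratio scaling, 4 were higher and 2 lower. Mphosph6, which binds the nuclear exosome, Tent4a, a poly(A) polymerase, and Mtrex, the helicase that feeds RNA into the exosome, were higher, by 0.83 (SE 0.12), 0.58 (SE 0.09) and 0.47 (SE 0.06). Zcchc7, a subunit of the nuclear TRAMP complex that works with Mtrex, was lower, at -0.48 (SE 0.09).

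**Figure D3:**
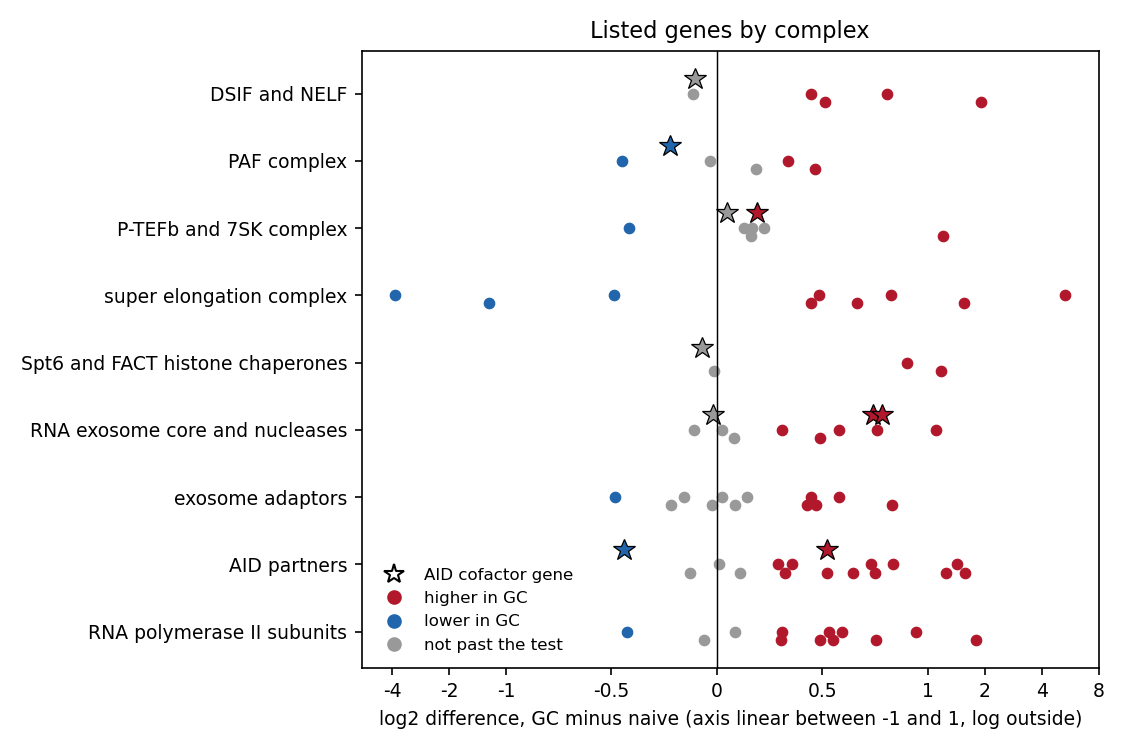
Log2 difference between GC and naive B cells for the tested genes of 9 lists, with 1 point per gene on an axis that is linear between -1 and 1 and logarithmic outside; stars are the 10 AID cofactor genes, red and blue points passed the test as higher or lower in GC B cells, and grey points did not. Supt5 and Exosc10 lie near 0 in lists whose medians are 0.48 and 0.49.

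Ptbp2 (ENSMUSG00000028134; chromosome 3, 119718741 to 119784647) encodes an RNA-binding protein that was linked to the recruitment of AID to switch regions. It was at 10.8, 10.4 and 10.4 TPM in GC pools and at 15.5, 15.3 and 13.2 TPM in naive pools. All GC pools were below all naive pools. Ptbp2 was lower in GC B cells, with a log2 difference of -0.44 (SE 0.09; limma adjusted p = 0.00506), and it passed in all 17 alternatives, between -0.59 and -0.40. As the least expressed member in GC B cells, Ptbp2 had about 74.1 reads per kilobase in the shallowest GC pool, by the estimated depth. Ptbp1, the paralog that most cells outside the nervous system use, was at 555, 549 and 545 TPM in GC pools and at 366, 352 and 334 TPM in naive pools. The paralogs thus went in opposite directions, with Ptbp1 higher by 0.65 log2 units (SE 0.04; adjusted p = 2.98e-05).

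Rnf126 (ENSMUSG00000035890; chromosome 10, 79758515 to 79771448) encodes a ubiquitin ligase that binds and ubiquitinates AID. It was at 76.8, 81.4 and 85.5 TPM in GC pools and at 53.3, 58.6 and 56.9 TPM in naive pools. The populations did not overlap. In GC B cells Rnf126 was higher by 0.52 log2 units (SE 0.06; limma adjusted p = 0.000439), and it passed in all 17 alternatives, between 0.39 and 0.56. Of the 16 genes of the AID partner list, Ptbp2 and Rnf126 included, 12 were higher, 1 was lower and 3 did not pass (median log2 difference 0.52). Of all tested genes, 35.5% were higher and 30.1% lower. Under quantile normalization, 10 genes of the list were higher and 2 lower. FPKM as deposited, median ratio scaling and the GC and length correction each gave 11 higher and 2 lower. Rpa3 and Rpa2, subunits of the single-stranded DNA binding protein RPA, were higher by 1.58 (SE 0.11) and 1.42 (SE 0.07); they also serve DNA replication.

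Over all 9 lists, 74 tested genes were not members, and 45 of them were higher in GC B cells, 7 lower and 22 not called (median log2 difference 0.44), against 35.5% higher and 30.1% lower over all tested genes, the shares to set beside each list's count above too. Among the 12 subunits of RNA polymerase II, 9 were higher and 1 was lower. Polr2g was at 269.5 ± 10.1 TPM in GC and 76.7 ± 2.48 TPM in naive pools. Polr2j and Polr2d were higher by 0.95 (SE 0.05) and 0.76 (SE 0.05) log2 units, and Polr2e was lower, at -0.43 (SE 0.05). The lists were described by counts only, and no difference between a list and other genes was tested.

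Whether partners or alternative subunits changed to the same extent was examined for 4 pairs, as the difference in log2(TPM + 1) between the genes in each pool. An exact two-sided permutation test over 6 pools cannot give a p below 0.10, so no pair could reach 0.05. For Exosc10 against Dis3, this difference was 1.89, 1.79 and 1.92 in GC pools and 2.68, 2.44 and 2.76 in naive pools (exact permutation p = 0.10, adjusted 0.20 over 4 pairs). Exosc10 exceeded Dis3 by 3.56- to 3.90-fold in GC pools and by 5.73- to 7.25-fold in naive pools. For Ptbp2 against Ptbp1, it was -5.56, -5.60 and -5.58 in GC pools and -4.48, -4.44 and -4.56 in naive pools (exact permutation p = 0.10, adjusted 0.20). These 2 pairs separated the populations completely.

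For Cdk9 against Ccnt1, the difference was 1.87, 2.34 and 2.17 in GC pools and 2.002, 1.96 and 1.99 in naive pools (exact permutation p = 0.40, adjusted 0.533). The naive pools lay within the range of the GC pools. For Supt5 against Supt6, it was 1.39, 1.41 and 1.43 in GC pools and 1.38, 1.42 and 1.51 in naive pools (exact permutation p = 0.70, adjusted 0.70). The mean of this difference changed by -0.03 between populations, and Supt5 stood 2.65- to 2.89-fold above Supt6 in all 6 pools.

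**Figure D4:**
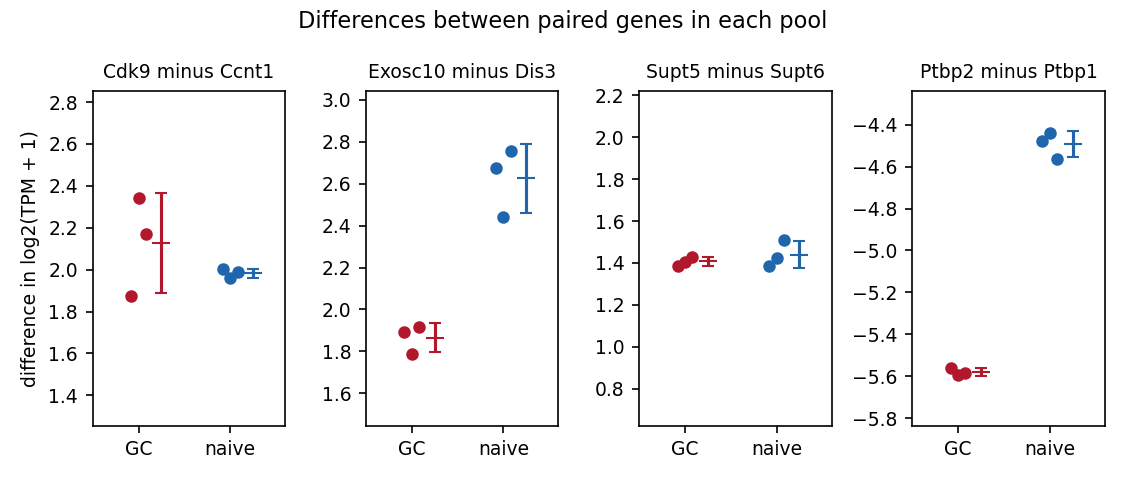
Difference in log2(TPM + 1) between the genes of 4 pairs in each pool, with the mean and SD of 3 pools beside the points; every panel spans the same 1.6 units. Exosc10 minus Dis3 is lower in GC pools and Ptbp2 minus Ptbp1 too, while Supt5 minus Supt6 lies between 1.38 and 1.51 in all pools.

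The genes most like Supt5 over the 6 pools, by Pearson's r of log2(TPM + 1), were Zfp788 (r = 0.994), Phactr4 (r = 0.991) and Ctso (r = 0.987). Those most like Exosc3 were Pdcd5 (r = 0.9995), 2310028O11Rik (r = 0.9993) and Ung (r = 0.9991), the last of which encodes a uracil DNA glycosylase. For Exosc3, 3667 of 12123 genes with a symbol had r above 0.9, and for Supt5 177 had. The 6 pools fall into 2 separate populations, so that r includes the difference between them. These values describe the pools only.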

How the data were processed

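RNA-Seq of 3 GC and 3 naive B cell pools was analyzed. The authors processed reads with CASAVA 1.8, FastQC, cutadapt 1.9 and RSEM 1.2.25 on the mouse transcriptome of NCBIm38, and deposited FPKM per gene and pool; the labels also name edgeR, without its role. From these values, the TPM of a gene was its share of the FPKM total of the pool, times 1000000. GC minus naive was tested with limma 3.58.1 (R 4.3.3; eBayes with trend) on log2(TPM + 1), a scale that understates changes of low genes, over genes that reached 1 TPM in 3 or more pools, with Benjamini-Hochberg adjustment and a threshold of 0.05. No count model was used, because expression was given only as FPKM. At the estimated depths, 72.2% to 75.6% of low values lay within 0.12 of a whole read. The fit was tested on simulated data, where it missed part of the genes changed by 1 log2 unit, those whose spread between pools was large. A gene with a large spread that did not pass here may thus still have changed.

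Symbols came from an annotation of NCBIM37 (33398 of 39179 identifiers named), coordinates and promoters from RefSeq GRCm38.p6. Exosc6, Ighd and Adgre1 were not matched and not analysed here, and some genes of the lists and of the naming rule are not reported here. The members and lists were chosen with earlier results of these data known. Named genes were the members, up to 3 genes per list and direction with the largest called change, Ptbp1, Supt4a, Ccnt2 and Dis3l, and the genes most like Supt5 and Exosc3. Alternatives were the pseudocount (0.1), FPKM as deposited, quantile normalization, median ratio scaling, leaving out genes listed at 0 in 1 pool and at 20 TPM or more in another of the same population, 2 other filters, limma without trend, a replicate block, and each pool left out. A correction for GC content and length of coding transcripts (86.3% of tested genes had both) was added after seeing the data. Other steps used matplotlib 3.10.9, pandas 2.3.3, scipy 1.17.1, numpy 2.4.6 and Python 3.11.15.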

Additional observations from a re-analysis of the deposited data

How the results depend on the processing

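Exosc3, Dis3, Rnf126, Paf1 and Ptbp2 kept their direction and call in all 17 alternatives. Supt5 passed as lower with FPKM as deposited (-0.15), median ratio scaling (-0.13) and quantile normalization (-0.24), which also called Supt6 (-0.18) and Exosc10 (-0.17) lower, so that 5 members were lower. Cdk9 lost its call under quantile normalization (0.0663), limma without trend (0.19), and the GC and length correction without and with the replicate block (0.12 in both), and it ranged from 0.139 to 0.241 with 1 pool left out. Ccnt1 changed sign with FPKM as deposited (-0.0023), quantile normalization (-0.0560) and the GC and length correction with and without the block (-0.11 in both), and ranged from -0.0762 to 0.154 with 1 pool left out. Relative to the shift of the median of all genes, it kept its sign under these scalings (0.05, 0.03 and 0.01). Its sign also turned without GC replicate 1 (-0.0762) and without naive replicate 3 (-0.0072). Exosc10 ranged from -0.0430 to 0.0136 with 1 pool left out. Other listed genes called lower numbered 7 in the main test, and 10 both with FPKM as deposited and with median ratio scaling. They numbered 11 under quantile normalization and 12 under the GC and length correction, with and without the block. The cause was not tested.

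The GC and length correction shifted the median of the 11031 genes it covered by -0.12. Relative to that shift, Supt5, Supt6 and Exosc10 were at 0.07, 0.005 and 0.09, with the sign turned. Cdk9 was at 0.24, and Exosc3 and Dis3 at 0.69 each. Relative to the shift under FPKM as deposited and median ratio scaling, Supt5 was at -0.106 and -0.105, near its main value of -0.103. Under quantile normalization, Supt5 was at -0.151 and Cdk9 at 0.153 relative to the shift. With the replicate block alone, no member's call changed, and 4342 genes were higher and 3618 lower against 4540 and 3852. Whether same-numbered pools came from the same mice was not stated. Deviations of same-numbered pools correlated at 0.083, 0.022 and 0.046, in each case the highest value of that GC pool. The other combinations lay between -0.075 and 0.030, and naive replicate 2 correlated best with GC replicate 3. These values are small and do not settle whether the pools were paired. The populations had 3 pools each, which limits what can be called among differences of the size of Supt5, Supt6 and Ccnt1.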
